A study of Mus musculus with 24 samples.

Results

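The Hox genes described here are 38 homeobox genes of the mouse Hox clusters: 10 of Hoxa on chromosome 6, 10 of Hoxb on chromosome 11, 9 of Hoxc on chromosome 15 and 9 of Hoxd on chromosome 2. They were followed in ATAC-seq peak lists of B-cell progenitors from mouse bone marrow. ATAC-seq marks DNA that is open to a transposase. The genes were chosen by name, and every peak in a gene body or within 10 kb of it on mm10 was taken. All 38 were found among 21631 protein-coding genes of the RefSeq annotation of GRCm38.p6, the assembly that mm10 names. Of 117992 regions where peaks of different libraries were joined, 68 lay in these windows.

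The libraries fall into 6 groups of 4: Mki67-/- and WT pre-pro-B cells, Mki67-/- and WT pro-B cells, and Mki67-/- and WT small pre-B cells. Mki67 is the gene of Ki-67, which coats chromosomes in dividing cells, and the labels name its allele only as Mki67-/-. The labels call the cells lymphoid progenitors of bone marrow and give no age, strain or sorting marker, nor whether libraries came from separate mice. P-values therefore measure the spread between libraries. The study's title asks whether Ki-67 shapes accessibility around antigen receptor rearrangement. The Hox clusters lie outside those loci.

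Hox genes encode transcription factors that set position along the body axis. They sit in clusters whose order from the 3' to the 5' end matches their order of use from anterior to posterior. In blood, central and posterior Hoxa genes and central Hoxb genes are known for their part in stem cells and early progenitors, and their activity declines as cells differentiate. Their proteins bind DNA with partners of the TALE class, such as Meis1. Trithorax-group proteins such as Kmt2a keep the clusters active, and Polycomb-group proteins keep them silent.

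The promoters of 4 genes are shown because they carry the main patterns below: a site lost at the last stage, a site gained after the first, a site listed at 1 stage, and the upstream edge of a region inside Hoxb4 that was listed at all stages. Each is 300 bases of RefSeq sequence on GRCm38.p6, from 250 bases before the gene's start to 50 after it, written 5' to 3'. Capitals mark bases that lay inside a peak of the deposited lists in all 8 libraries of 1 stage. That stage is pre-pro-B for Hoxa3 and Hoxb4 and pro-B for Hoxa11 and Hoxa13.
Hoxa3, chr6:52213018-52213317, minus strand: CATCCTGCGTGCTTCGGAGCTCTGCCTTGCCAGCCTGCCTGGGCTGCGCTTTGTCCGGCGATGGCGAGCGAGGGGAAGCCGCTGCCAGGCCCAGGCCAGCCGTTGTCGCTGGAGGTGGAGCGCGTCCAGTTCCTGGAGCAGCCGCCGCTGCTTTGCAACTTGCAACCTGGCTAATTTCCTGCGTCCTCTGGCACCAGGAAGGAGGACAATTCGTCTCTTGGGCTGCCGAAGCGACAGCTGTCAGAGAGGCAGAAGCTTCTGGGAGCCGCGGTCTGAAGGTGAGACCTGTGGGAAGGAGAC
Hoxa13, chr6:52260831-52261130, minus strand: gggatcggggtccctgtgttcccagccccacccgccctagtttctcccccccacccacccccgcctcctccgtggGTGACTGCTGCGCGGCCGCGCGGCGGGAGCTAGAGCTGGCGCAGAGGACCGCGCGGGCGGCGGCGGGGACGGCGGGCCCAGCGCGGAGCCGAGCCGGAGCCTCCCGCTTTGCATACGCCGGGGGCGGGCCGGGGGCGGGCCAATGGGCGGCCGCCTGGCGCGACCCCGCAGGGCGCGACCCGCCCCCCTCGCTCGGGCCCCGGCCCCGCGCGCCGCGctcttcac
Hoxa11, chr6:52245761-52246060, minus strand: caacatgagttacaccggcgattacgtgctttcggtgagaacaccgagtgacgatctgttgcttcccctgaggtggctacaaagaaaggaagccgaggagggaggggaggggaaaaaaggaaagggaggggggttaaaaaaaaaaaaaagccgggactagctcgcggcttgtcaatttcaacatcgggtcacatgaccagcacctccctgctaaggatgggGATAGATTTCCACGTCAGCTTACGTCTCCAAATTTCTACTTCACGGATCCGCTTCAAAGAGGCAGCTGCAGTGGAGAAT
Hoxb4, chr11:96318017-96318316, plus strand: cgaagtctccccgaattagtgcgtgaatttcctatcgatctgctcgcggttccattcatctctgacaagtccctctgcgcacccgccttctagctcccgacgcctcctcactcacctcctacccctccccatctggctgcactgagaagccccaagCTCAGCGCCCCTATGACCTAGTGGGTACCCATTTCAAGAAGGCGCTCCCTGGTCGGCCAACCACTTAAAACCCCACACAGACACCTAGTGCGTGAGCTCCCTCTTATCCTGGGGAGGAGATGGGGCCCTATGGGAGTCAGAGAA
In Hoxa3 all 300 bases were covered in the 8 pre-pro-B libraries, and a peak touched this promoter in 7 of 8 pro-B libraries and 0 of 8 small pre-B libraries. In Hoxa13, 217 bases were covered in the 8 pro-B libraries, and the promoter was without a peak in all 8 pre-pro-B libraries. In Hoxa11, 79 bases at the downstream end were covered in the 8 pro-B libraries, and no library of the other stages had a peak there. The Hoxb4 peak lay mostly inside the gene and reached 144 bases of the promoter in the 8 pre-pro-B libraries. A peak touched these 300 bases in 4 of 8 pro-B and 5 of 8 small pre-B libraries, while the region inside the gene had a peak in all 24.

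RefSeq promoters were at hand for 22 of the 38 genes. The Hoxa13 promoter held 45 CpG dinucleotides, the most among the 22, whose median was 13.5, against a median of 7 over all 27025 promoters in the table. A CCAAT box, the letters bound by NF-Y, was found on either strand in 14 of the 22 promoters and in 37.9% of all promoters. Hoxa13 was among the 14, while Hoxa3, Hoxa11 and Hoxb4 were not. TGACAG, the letters that Meis and Pknox factors bind, was found in Hoxa2 and Hoxa3, and in 19.3% of all promoters. TGTGGT, a Runx site, was found in Hoxd10 alone (16.9%). TATAAA was found in Hoxb8, Hoxd4 and Hoxd13 (14.2%). The core motif of CTCF (1.04%) and the Ets site CCGGAAGT (4%) were found in 0 of the 22. These are matches of letters in a window of 300 bases.

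Each library's list held 54387 to 88946 peaks once touching entries were merged, and a background coverage of 1.86 to 5.3 could be recovered from the deposited p-values as a stand-in for depth. Lists were longer and peaks wider in pre-pro-B cells. Comparisons between stages therefore used the 40000 strongest peaks of each library by -log10 q, called strong peaks here, and comparisons by genotype used the deposited lists. Even among strong peaks the median width ran 742, 493 and 433 bp from the first stage to the last (means of 8 libraries), with 31.7, 22 and 20.1 Mb covered. There were 3 libraries that stood apart. Replicate 4 of Mki67-/- pre-pro-B and replicate 1 of Mki67-/- small pre-B had the lowest coverage, 1.86 each. Replicate 1 of WT small pre-B had 85621 peaks, the most of its group. The 10 early B genes, a list chosen with earlier results of these data known, separated pre-pro-B from the later stages. They held 26 to 33 strong peaks per library at pre-pro-B, 65 to 70 at pro-B and 55 to 64 at small pre-B.

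The 4 clusters differed in their number of strong peaks. In pre-pro-B cells the Hoxa windows held 9.13 ± 0.83 strong peaks per library, the Hoxb windows 5 ± 0.535, the Hoxc windows 2.38 ± 1.19 and the Hoxd windows 0.625 ± 0.744 (SD, n = 8). The order was the same in pro-B cells, with 9.13 ± 1.36, 5.38 ± 0.74, 1.88 ± 0.35 and 1 ± 0, and in small pre-B cells, with 7.63 ± 1.06, 4.75 ± 0.89, 2 ± 0.756 and 1.25 ± 1.39. No Hoxa library fell below 6 strong peaks and no Hoxd library passed 4. The deposited lists kept that order at pro-B and small pre-B but not at pre-pro-B. At pre-pro-B they held 15.5 ± 1.41 peaks in Hoxa, 15.1 ± 3.76 in Hoxb, 7.13 ± 1.81 in Hoxc and 7.63 ± 2.62 in Hoxd. At pro-B they held 19.9 ± 2.1, 13.9 ± 1.46, 8.63 ± 1.3 and 5.63 ± 2.5 in these clusters. At small pre-B they held 13.5 ± 2.56, 9 ± 2.39, 5.5 ± 1.31 and 2.63 ± 1.77 in the same 4 clusters. The windows are of like length, from 116918 bp for Hoxd to 139220 bp for Hoxb, which is split because Hoxb13 lies apart from the rest of its cluster.

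Strong peaks were also unequal along each cluster. Each peak was given to the paralog whose 3' boundary was nearest, and paralogs 1 to 3 are called anterior, 4 to 8 central and 9 to 13 posterior. Under this rule a peak inside the long bodies of Hoxa3, Hoxb3 and Hoxd3 can go to a neighbour, so it describes positions along a cluster and not single genes. In Hoxb 0 strong peaks were given to the anterior position in all 24 libraries, while the central position held 4 ± 0.535, 4.38 ± 0.74 and 3.75 ± 0.89 from the first stage to the last (n = 8 each). In the deposited lists the anterior position of Hoxb held 3.5 ± 0.756, 2 ± 0.535 and 0.75 ± 0.71 peaks. The anterior position of Hoxd held 0 strong peaks in all 24 libraries, and 1.25 ± 0.89, 0.75 ± 0.71 and 0 ± 0 peaks in the deposited lists. In Hoxa the anterior position did hold strong peaks, with 1.38 ± 0.52, 1 ± 0 and 1 ± 0 and at least 1 in every library. The central position (4 ± 0, 3.75 ± 0.46 and 3 ± 0) and the posterior position (3.75 ± 0.71, 4.38 ± 1.19 and 3.63 ± 1.06) of Hoxa also held strong peaks at all stages.

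**Figure D1:**
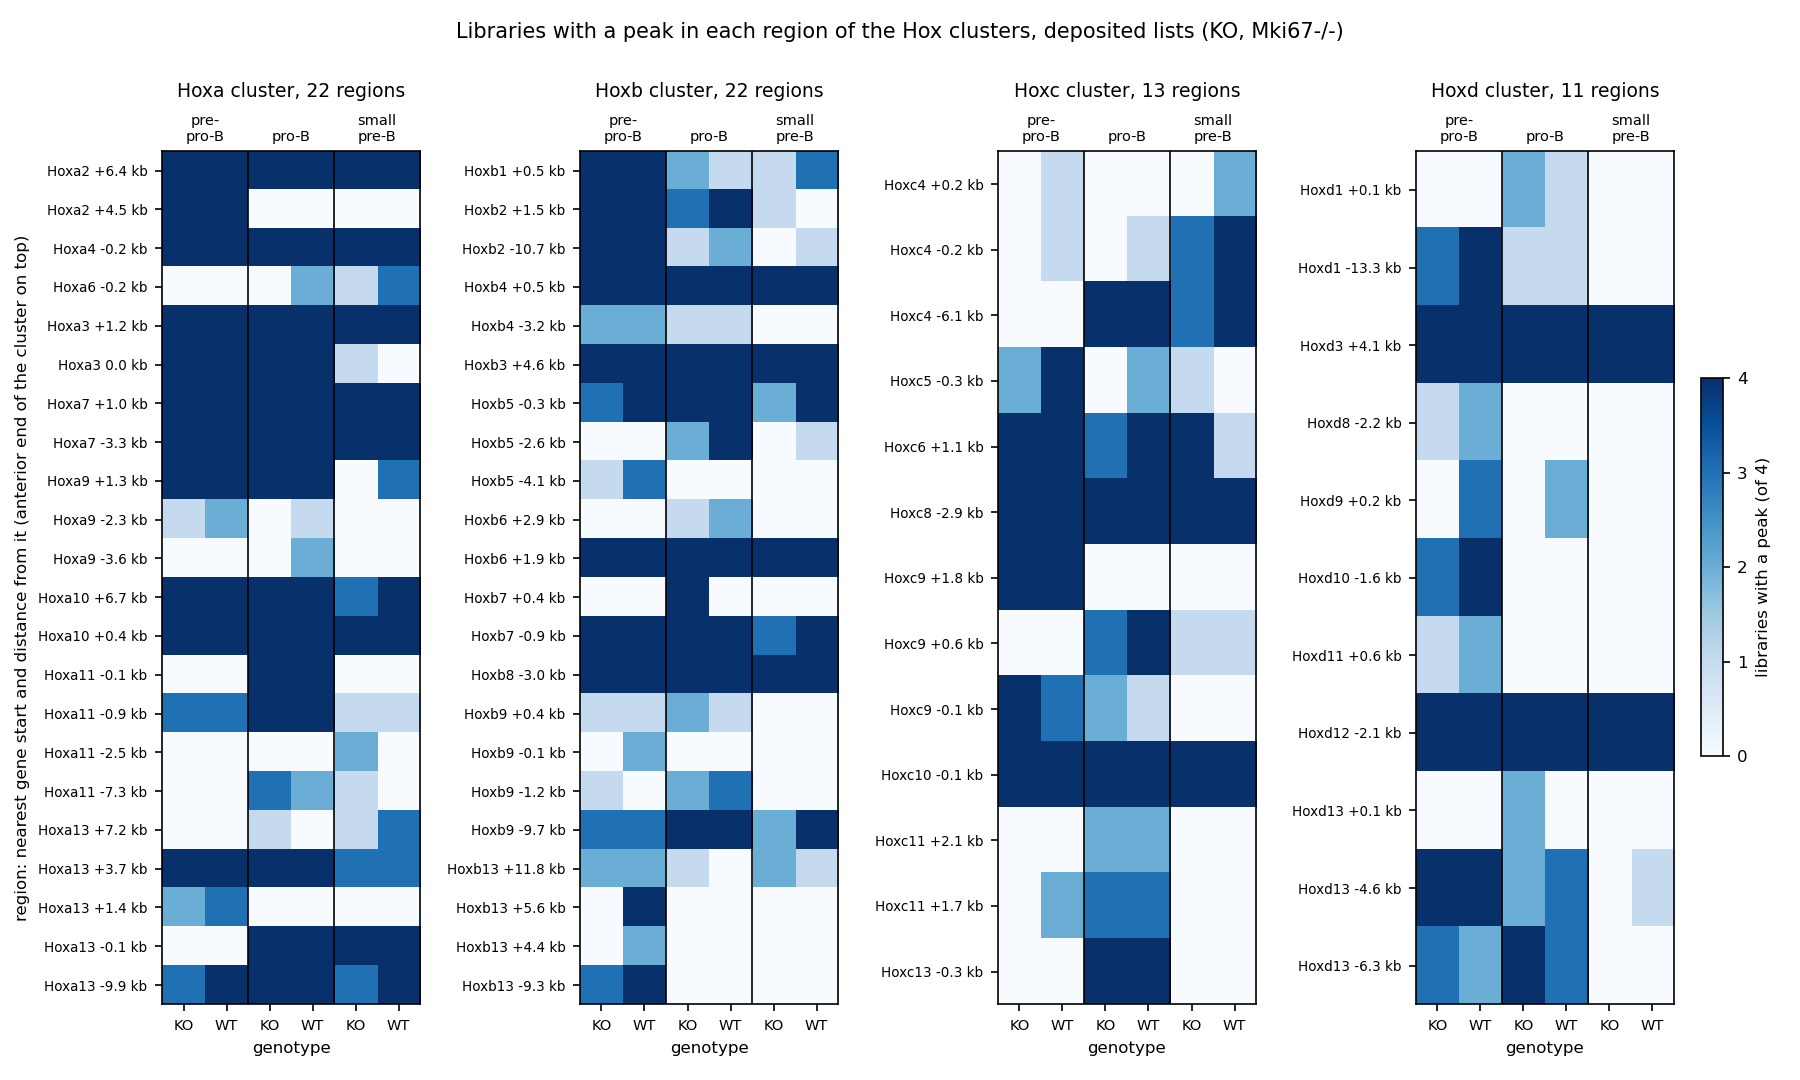
Each row is 1 of the 68 regions of the Hox clusters, named by the nearest gene start and its distance in kb, with the anterior end of a cluster on top. Columns are the 6 groups, Mki67-/- (KO) left of WT within each stage, and shade gives the number of the group's 4 libraries with a peak in the deposited lists; 14 rows are dark in all 6 columns.

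Of the 68 regions, 22 lay in Hoxa, 22 in Hoxb, 13 in Hoxc and 11 in Hoxd. A peak was present in all 24 deposited lists in 14 of them, which is 6 in Hoxa, 4 in Hoxb, 2 in Hoxc and 2 in Hoxd. Among strong peaks 10 regions were present in all 24 libraries, 6 in Hoxa and 4 in Hoxb. Over all 117992 regions the shares were 22.7% and 14.2%. At the other end, 41 of the 68 regions were a strong peak in no library.

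Several of the regions open throughout lay at genes with a known role in blood progenitors. One lay inside Hoxb4, which expands stem cells when forced on, at chr11:96318017-96319483. Its median rank within the deposited list, where 0% is the strongest peak, was 10.2% at pre-pro-B, 24.3% at pro-B and 30.5% at small pre-B. Single libraries ranked it between 7.68 and 16.1%, between 22.3 and 30.2%, and between 24.6 and 37.3% at these stages. Other such regions lay in Hoxb3 (chr11:96311167-96312236; median ranks 13.5, 23.2 and 21.8%), at the start of Hoxa10 (chr6:52240091-52240867; 23.4, 34.5 and 33.5%) and at the start of Hoxa4 (chr6:52191276-52192480; 18.8, 18.9 and 24.5%). Ranks come from lists of different length and show where a region stood in its own list, not a change.

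Few Hox starts were open by genome standards. A strong peak lay within 1 kb of the start in all 8 pre-pro-B libraries for 6 of 38 genes, Hoxa3, Hoxa4, Hoxa7, Hoxa9, Hoxa10 and Hoxb4. In pro-B libraries this held for 5 genes, Hoxa4, Hoxa7, Hoxa10, Hoxb4 and Hoxc10, and in small pre-B libraries for 4, Hoxa4, Hoxa7, Hoxa10 and Hoxb4. Among 17274 genes with a start in the promoter table it held for 49.8, 51.3 and 50.1%. No library had such a peak for 28, 28 and 29 of the 38 genes, against 44.5, 43.5 and 44.3% of the 17274. The starts of 22 of the 38 genes came from that table and the others from the gene boundary, so the compared starts are not fully alike.

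Stages were compared by counting strong peaks in each gene and its 10 kb flanks, with stage permuted within genotype in an exact two-sided test. Of the 38 genes, 28 had a strong peak in at least 4 of 24 libraries and were tested among 16349 genes. The windows of neighbouring Hox genes overlap, so 1 peak can count for several of them. In pro-B against pre-pro-B cells 4 Hox genes passed with more peaks (adjusted p under 0.05 after Benjamini and Hochberg), against 24.6% of all genes tested, and 3 passed with fewer, against 21%. In small pre-B against pro-B cells 0 passed with more, against 11% (none had an unadjusted p under 0.05 in that direction), and 4 with fewer, against 11.5%. In small pre-B against pre-pro-B cells 1 passed with more, against 23.7%, and 8 with fewer, against 20.5%. The median difference of the 28 genes was -0.313 peaks in the first step, -0.25 in the second and -0.25 over both, beside 0 over all genes in each case. Libraries of the 2 stages did not overlap for Hoxa7 in the first step, with fewer peaks (11.2% of all genes; 12.5% with more), and for 0 genes in the second (3.55% with fewer and 3.98% with more). Over both steps Hoxa3, Hoxa5, Hoxa6, Hoxa7 and Hoxa9 did not overlap, with fewer peaks (9.84% of all genes; 11.6% with more).

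**Figure D2:**
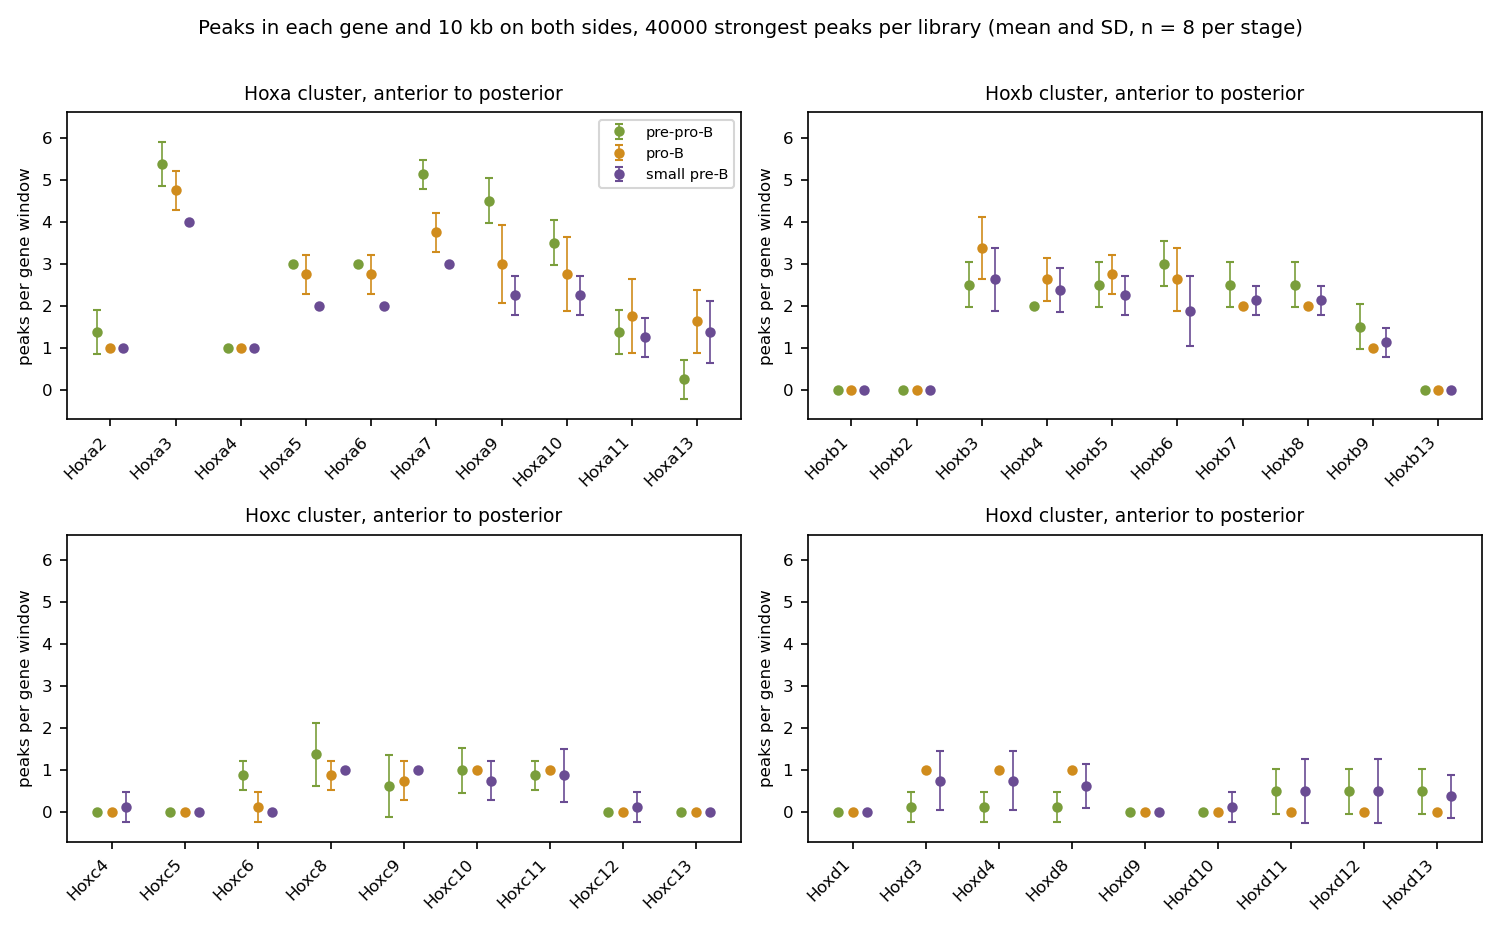
Strong peaks per gene window (gene body and 10 kb on both sides), mean and SD over the 8 libraries of each stage, with the genes of each cluster from anterior to posterior. Hoxa7 and Hoxa9 stood lower at each later stage, Hoxa13 stood higher after pre-pro-B, and Hoxb1, Hoxb13, Hoxc4, Hoxc5 and Hoxc13 stayed at or near 0.

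In Hoxa the genes that passed with fewer peaks were Hoxa3, Hoxa5, Hoxa6, Hoxa7, Hoxa9 and Hoxa10, neighbours whose windows overlap. Hoxa9 is the best known of these genes for keeping early progenitors in self-renewal. Hoxa9 had 4, 4, 4 and 5 strong peaks in the Mki67-/- and 4, 5, 5 and 5 in the WT pre-pro-B libraries. It had 2, 2, 4 and 3 in Mki67-/- and 3, 2, 4 and 4 in WT pro-B libraries. In small pre-B cells it had 2, 2, 2 and 2 in Mki67-/- and 3, 2, 3 and 2 in WT libraries. No small pre-B library reached the lowest pre-pro-B library. The difference was -1.5 peaks for pro-B against pre-pro-B (permutation p adjusted to 0.0132) and -2.25 for small pre-B against pre-pro-B (adjusted p = 0.00182), while -0.75 for small pre-B against pro-B did not pass (adjusted p = 0.3).

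Hoxa7, which is expressed with Hoxa9 in blood progenitors and in leukaemias driven by Kmt2a fusions, fell in each comparison. It had 5 peaks in 7 of the 8 pre-pro-B libraries and 6 in Mki67-/- replicate 4. All 8 small pre-B libraries had 3, and the pro-B libraries had 3 or 4. The differences were -1.375 in the first step (adjusted p = 0.00166), -0.75 in the second (0.0456) and -2.125 over both (0.00182).

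Hoxa3, Hoxa5 and Hoxa6 each fell by 0.75 peaks in the second step (adjusted p = 0.0456 each) and by 1.375, 1 and 1 peaks over both (0.00182 each). Hoxa3 patterns the pharyngeal arches and thymus, and Hoxa5 and Hoxa6 pattern the trunk. Hoxa5 and Hoxa6 had 3 strong peaks in every pre-pro-B library and 2 in every small pre-B library. All of these windows share 1 peak, the one at the Hoxa3 start shown above, so they are not separate losses. Hoxa10, another posterior gene known from stem cells and myeloid progenitors, had 3.5 ± 0.535, 2.75 ± 0.89 and 2.25 ± 0.46 strong peaks from the first stage to the last (n = 8 each). Only its difference over both steps passed (-1.25, adjusted p = 0.00472).

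The calls of the second step were borderline. Hoxa3, Hoxa5, Hoxa6 and Hoxa7 each had an adjusted p of 0.0581 when the 3 libraries that stood apart were left out, and 0 of them passed when windows reached only 2 kb beyond the gene. With those narrower windows Hoxa7 had no difference in any step, and Hoxa10 over both steps had one of -0.125 (adjusted p = 1). Counted on the deposited lists, which are longer, the first step turned for Hoxa7 (1.25 more peaks in pro-B, adjusted p = 0.155) and Hoxa9 (0.25 more, 0.992). On these lists the difference over both steps turned for Hoxa5 (0.125 more in small pre-B), and none of the turned differences passed. There the difference over both steps no longer passed for Hoxa3 (-0.75, adjusted p = 0.315), Hoxa6 (-0.625, 0.349) and Hoxa7 (-1.625, 0.0511). With the 20000 strongest peaks the second step did not pass for Hoxa3 and Hoxa7 (adjusted p = 0.0862 each) or Hoxa5 (a difference of 0, adjusted p = 1), and it turned for Hoxa6 (0.25). The strong peaks of pre-pro-B libraries were the widest, and more than 1 peak of a later stage can lie within 1 of them. Whether width has a part in these counts was not tested.

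The regions behind these counts were tested by presence or absence of a strong peak, among 48311, 33949 and 46896 regions. In pro-B against pre-pro-B 3 Hox regions of 16 tested passed as gained, against 23.8% of all, and 2 as lost, against 26.3%. In small pre-B against pro-B 0 of 14 were gained, against 14.3%, and 1 was lost, against 18.7%. In small pre-B against pre-pro-B 1 of 16 was gained, against 20.2%, and 3 were lost, against 25.7%.

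The region lost in the second step was at the annotated Hoxa3 start, between Hoxa6 and Hoxa7, at chr6:52212618-52213590. It was a strong peak in 4 of 4 Mki67-/- and 4 of 4 WT pre-pro-B libraries, in 3 of 4 and 3 of 4 pro-B libraries, and in 0 of 4 and 0 of 4 small pre-B libraries. Its adjusted p was 0.0349 in the second step and 0.00144 over both. In the deposited lists a peak remained in 8 of 8 pre-pro-B, 8 of 8 pro-B and 1 of 8 small pre-B libraries, the 1 being from Mki67-/-. Some deposited peak lay within 1 kb of the Hoxa3 start in 8, 8 and 3 of 8, the 3 being 1 Mki67-/- and 2 WT libraries. A neighbouring region 1.21 kb into the same gene (chr6:52211415-52212290) was a strong peak in all 24 libraries.

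The region lost in the first step in Hoxa lay inside Hoxa9, at chr6:52225563-52226564. It was a strong peak in all 8 pre-pro-B libraries and in 0 of 8 pro-B and 0 of 8 small pre-B libraries (adjusted p = 0.00124 in the first step and 0.00144 over both). A weaker peak stayed in the deposited lists of all 8 pro-B libraries, at a median rank of 71.6%, against 22.5% in pre-pro-B. In small pre-B cells 0 of 4 Mki67-/- and 3 of 4 WT libraries listed one. So the site was still called in pro-B cells, but no longer among the strong peaks. The windows of Hoxa7 and Hoxa10 also take in this region, so their counts share this loss with Hoxa9.

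**Figure D3:**
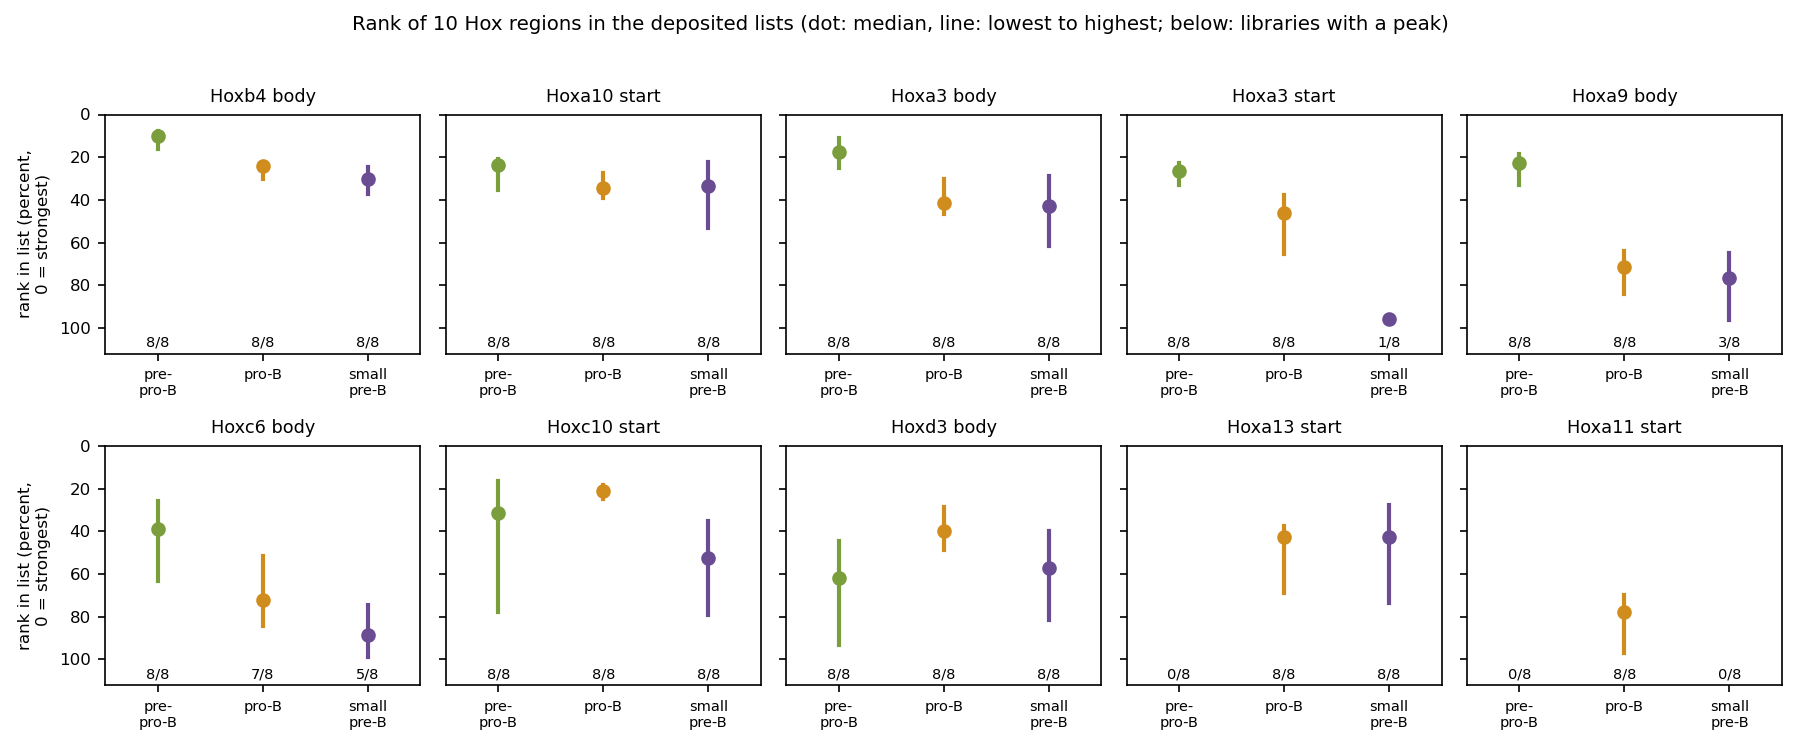
Rank of 10 Hox regions in each library's deposited list, as percent of the list with 0 the strongest and the axis turned so that strong regions stand high. Dots are medians and lines run from the lowest to the highest rank over the libraries with a peak, whose number of 8 stands below; the Hoxa3 start was listed in 1 of 8 small pre-B libraries and the Hoxa13 start in 0 of 8 pre-pro-B libraries.

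Hoxa13, the most posterior gene of its cluster, which patterns the distal limb and the urogenital tract, went the other way. Its window held 0, 1, 0 and 0 strong peaks in Mki67-/- and 0, 0, 0 and 1 in WT pre-pro-B libraries. It held 2, 2, 2 and 1 in Mki67-/- and 2, 2, 2 and 0 in WT pro-B libraries, and 0, 2, 1 and 1 in Mki67-/- and 2, 1, 2 and 2 in WT small pre-B libraries. The groups of pro-B and pre-pro-B libraries overlapped through WT pro-B replicate 4. The difference was 1.375 for pro-B against pre-pro-B (adjusted p = 0.0165) and 1.125 for small pre-B against pre-pro-B (0.0314). Neither passed on the deposited lists, with differences of 0.875 (adjusted p = 0.358) and 0.125 (1), or with 2 kb flanks, with 0.5 (0.288) and 0.875 (0.0658).

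At the Hoxa13 start itself (chr6:52260781-52261092) the pattern was the same in the deposited lists: a peak in 0 of 8 pre-pro-B, 8 of 8 pro-B and 8 of 8 small pre-B libraries. As a strong peak it stood in 0, 6 and 7 of 8 (adjusted p = 0.0212 in the first step and 0.00554 over both). Some deposited peak lay within 1 kb of the Hoxa13 start in 2, 8 and 8 of 8, the 2 being WT pre-pro-B libraries. The third gained region lay 9.86 kb upstream of that start (chr6:52270494-52270986), and was a strong peak in 0 of 8 pre-pro-B, 7 of 8 pro-B and 2 of 8 small pre-B libraries (adjusted p = 0.00493 in the first step). In the deposited lists it was present in 7, 8 and 7 of 8.

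At 2 other posterior starts a weaker region was listed in pro-B cells and at neither other stage. At the start of Hoxa11, which patterns limb, kidney and uterus, a region at chr6:52245633-52246264 had a peak in 0 of 8 pre-pro-B, 8 of 8 pro-B and 0 of 8 small pre-B deposited lists. Its median rank in pro-B cells was 77.7%, and no library had it as a strong peak. A separate region 0.87 kb upstream of that start was listed in 6, 8 and 2 of 8 libraries, so some peak lay within 1 kb of the Hoxa11 start in 6, 8 and 4 of 8. The region beside the start of Hoxc13, a regulator of hair and nail growth, at chr15:102920627-102921032, had the same pattern of 0, 8 and 0, with a median rank of 66.4%. On the deposited lists both passed as gained in the first step (adjusted p = 0.00138 each) and as lost in the second (0.0049 each). On those lists 20.4% of 81712 regions were gained in the first step and 20.4% of 55616 were lost in the second.

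Hoxc had 1 site that left the strong peaks. Hoxc6, a gene of the trunk, had 1, 1, 1 and 0 strong peaks in Mki67-/- and 1, 1, 1 and 1 in WT pre-pro-B libraries. In pro-B cells it had 0, 0, 0 and 1 in Mki67-/- and 0 in all 4 WT libraries, and small pre-B libraries all had 0. It fell by 0.75 peaks in the first step (adjusted p = 0.0309) and by 0.875 over both (0.00626). On the deposited lists Hoxc6 did not pass in the first step (adjusted p = 0.0719) or over both (0.0793). The region lies inside the gene at chr15:102998883-102999801 and was a strong peak in 7, 1 and 0 of 8 libraries (adjusted p = 0.0278 and 0.00554). In the deposited lists it was still present in 8, 7 and 5 of 8, and the small pre-B peaks came from 4 of 4 Mki67-/- and 1 of 4 WT libraries.

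Hoxc4, which in mouse B cells is known to act on the gene for the enzyme of class switching, was weakly open at the later stages. Its window held a strong peak in 1 of 24 libraries, a WT small pre-B one, so it was not tested on strong peaks. In the deposited lists a region in the annotated gene, 6.05 kb upstream of the start in the promoter table (chr15:103028196-103028490) had a peak in 0 of 8 pre-pro-B, 8 of 8 pro-B and 7 of 8 small pre-B libraries (adjusted p = 0.00138 in the first step). A region at that start (chr15:103034099-103034330) had a peak in 1 of 8, 1 of 8 and 7 of 8 (adjusted p = 0.0397 in the second step, where 9.45% of all regions were gained). Their median ranks in small pre-B libraries were 78.9% and 84.1%. Hoxc9 showed the reverse at a region inside it (chr15:102978505-102979129), listed in 8, 0 and 0 of 8 libraries (adjusted p = 0.00138 for the loss, where 30.2% of all regions were lost).

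The start of Hoxc10, a gene of the hindlimb and lumbar cord, held a site at chr15:102966419-102966994. It had a peak in all 24 deposited lists, at median ranks of 31.3, 20.9 and 52.4% with single libraries between 16.5 and 79.4%, and was a strong peak in 7, 8 and 6 of 8 libraries. Those shares did not differ past the test (adjusted p = 1, 0.657 and 1 for the 2 steps and both). Hoxc4, Hoxc5, Hoxc12 and Hoxc13 were below the test's minimum of strong peaks.

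In Hoxd the 3 genes that passed, Hoxd3, Hoxd4 and Hoxd8, shared 1 region, inside the annotated body of Hoxd3 at chr2:74715782-74716316. Hoxd3, Hoxd4 and Hoxd8 pattern the axial skeleton. The region was a strong peak in 1 of 4 Mki67-/- and 0 of 4 WT pre-pro-B libraries, and in 4 of 4 and 4 of 4 pro-B libraries. In small pre-B cells it was one in 1 of 4 Mki67-/- and 4 of 4 WT libraries, or 1 of 3 and 3 of 3 without replicate 1 of each. The first step passed, with a difference of 0.875 (adjusted p = 0.00592 for the genes and 0.00493 for the region). All 24 deposited lists held this region. There the counts over the 3 genes turned, to -1.125 for Hoxd3 (adjusted p = 0.108), -0.25 for Hoxd4 (0.645) and -0.375 for Hoxd8 (0.642). None of these turned differences passed.

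Hoxd9 and Hoxd10 reached a strong peak in at most 1 library. A region 2.08 kb upstream of the Hoxd12 start (chr2:74672533-74673335), also in all 24 deposited lists, was a strong peak in 4, 0 and 3 of 8 libraries. The 3 were WT small pre-B libraries. WT small pre-B replicate 1 had 4 strong Hoxd peaks, and the other WT small pre-B libraries had 1, 2 and 2. Mki67-/- small pre-B libraries had 0, 0, 0 and 1.

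Among the Hoxb genes Hoxb6 alone passed on strong peaks. Hoxb6, known from erythroid and myeloid progenitors, had 3, 3, 3 and 2 strong peaks in Mki67-/- and 4, 3, 3 and 3 in WT pre-pro-B libraries. In small pre-B cells it had 1, 3, 1 and 1 in Mki67-/- and 2, 2, 3 and 2 in WT libraries. The difference of -1.125 peaks over both steps had an adjusted p of 0.0369. The call did not hold on the deposited lists (-1.25, adjusted p = 0.169), with the 20000 strongest peaks (-0.375, 0.649) or with 2 kb flanks (-0.25, 0.973). It no longer passed without any 1 of Mki67-/- pre-pro-B replicates 1, 2 and 3 (adjusted p = 0.0618, 0.0621 and 0.0617), without Mki67-/- small pre-B replicate 3 (0.0501), or without the 3 libraries that stood apart (0.0524).

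Hoxb4 had 2 strong peaks in every pre-pro-B library and 2.63 ± 0.52 and 2.38 ± 0.52 at the later stages (n = 8 each), and its first step had an adjusted p of 0.0621. Hoxb3, a neighbour with a part in stem cell renewal, had 2.5 ± 0.535, 3.38 ± 0.74 and 2.63 ± 0.74 (adjusted p = 0.103 in the first step and 0.343 in the second). Hoxb8, which immortalises myeloid progenitors when forced on, had 2.5 ± 0.535, 2 ± 0 and 2.13 ± 0.35 (0.0612 and 1). The outer genes Hoxb1, a hindbrain gene, and Hoxb13, a gene of the prostate and tail, had 0 strong peaks in all 24 libraries.

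**Figure D4:**
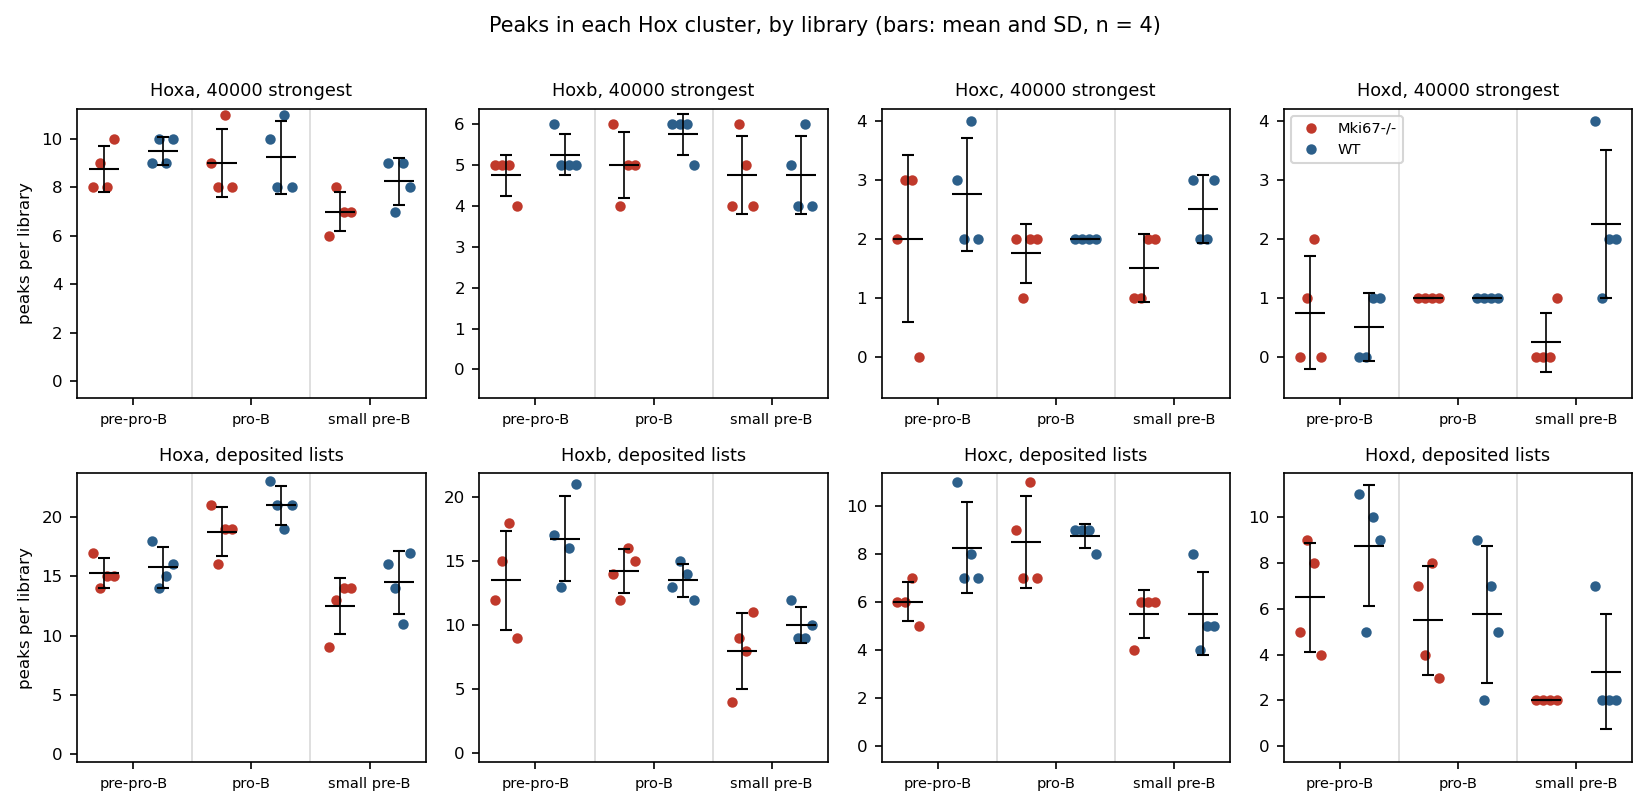
Peaks per library in each cluster, among the 40000 strongest peaks (upper row) and in the deposited lists (lower row), with Mki67-/- left of WT within each stage and the mean and SD of 4 libraries in black. Genotypes overlap or touch in all panels, and WT small pre-B replicate 1 stands alone in Hoxd with 7 peaks in its deposited list.

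The comparison by genotype asks whether loss of Ki-67 changed the clusters. Of the 38 genes, 37 were tested in the deposited lists, and 0 passed in either direction across stages, against 0% of 17598 genes each way. At an unadjusted p under 0.05 there were 3 Hox genes and 893 genes in all. Of the 37, 30 had a lower mean in Mki67-/- than in WT libraries and 4 a higher one. Neighbouring windows share peaks and the share of all genes in each direction is not given, so these counts do not set the Hox genes apart. The median difference of the 37 genes was -0.167 peaks, beside -0.083 over all genes. Background coverage moved the same way: it was 3.26 ± 0.99 in Mki67-/- and 4.29 ± 1.26 in WT pre-pro-B libraries, 2.92 ± 0.68 and 3.15 ± 0.21 at pro-B, and 2.58 ± 0.51 and 3.12 ± 0.59 at small pre-B (n = 4 each). Its part in the differences was not tested.

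Those 3 genes were Hoxa9, Hoxd9 and Hoxd8. Hoxa9 held 7, 5, 5 and 8 peaks in Mki67-/- and 7, 6, 5 and 6 in WT pre-pro-B libraries. It held 5, 5, 6 and 5 in Mki67-/- and 9, 7, 6 and 8 in WT pro-B libraries, and 2, 3, 3 and 3 in Mki67-/- and 4, 4, 4 and 5 in WT small pre-B libraries. The genotypes did not overlap in small pre-B cells and met at 6 peaks in pro-B cells. Across stages the difference was -1.17 peaks (permutation p = 0.0243, adjusted p = 0.889). In small pre-B cells the exact p was 0.0286, the smallest that 4 against 4 libraries allow, and the adjusted p was 1. Such groups did not overlap, with fewer peaks in Mki67-/-, for 1 of 37 Hox genes in small pre-B cells and 0.784% of all genes, and with more for 0 and 0.449%.

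Hoxd9 held 1, 1, 2 and 0 peaks in Mki67-/- and 3, 1, 3 and 2 in WT pre-pro-B libraries, 0, 0, 1 and 0 and 2, 0, 1 and 1 in pro-B libraries, and 0 in all Mki67-/- and 1, 0, 0 and 0 in WT small pre-B libraries. The difference across stages was -0.75 (permutation p = 0.0292, adjusted p = 0.889). At its start a region (chr2:74697676-74698176) was listed for 0 of 4 Mki67-/- and 3 of 4 WT pre-pro-B libraries, and in 0 of 4 and 2 of 4 pro-B libraries (permutation p = 0.0306, adjusted p = 1). Hoxd8 differed by -0.667 (permutation p = 0.0404, adjusted p = 0.944).

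Across stages 0 of 54 Hox regions tested passed by genotype, beside 0% of 91188 regions. Unadjusted p was under 0.05 for 3 Hox regions and 1978 regions in all, and 2 of the 3 split the genotypes of 1 stage fully. A region 5.59 kb downstream of the Hoxb13 start, beyond the gene's 3' end (chr11:96199626-96200186) was listed for 0 of 4 Mki67-/- and 4 of 4 WT pre-pro-B libraries, at ranks of 93.3 to 98.4%. A region inside Hoxb7 (chr11:96285788-96286223) had one in 4 of 4 Mki67-/- and 0 of 4 WT pro-B libraries, at ranks of 66.4 to 91.1%. Each had an exact p of 0.0286 and an adjusted p of 1. In pre-pro-B cells 1 of 26 Hox regions and 263 of 36980 regions in all had an unadjusted p under 0.05. In pro-B cells 1 of 28 and 526 of 30384 did. The Hoxb13 window followed its region, with 1, 2, 2 and 0 peaks in Mki67-/- and 3, 3, 3 and 3 in WT pre-pro-B libraries. At that stage 0.5% of all genes had no overlap in that direction and 0.176% in the other. In pro-B cells 0 Hox genes had no overlap (0.676% of all genes lower and 0.568% higher).

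The change between stages was also compared by genotype, and 0 of 28 Hox genes passed in either step, beside 0% of all genes. Unadjusted p was under 0.05 for 3 and 0 Hox genes, and for 282 and 449 of all 16349 genes. Of Hox regions 0 of 16 and 0 of 14 passed, with 1 and 0 under 0.05, as were 453 of all 48311 and 936 of all 33949 regions. Among the Hox genes the smallest unadjusted p was for Hoxb7, Hoxb8 and Hoxb9 in the first step (0.0286 each, adjusted p = 1), which share a region 0.944 kb upstream of Hoxb7 (chr11:96284347-96284973). It was a strong peak in 0 of 4 Mki67-/- and 4 of 4 WT pre-pro-B libraries and in 0 of 4 and 0 of 4 pro-B libraries. In the deposited lists all 8 pre-pro-B and all 8 pro-B libraries held it.

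The genes that work on the clusters were followed in the same way. Their counts stand beside the shares of all genes, which were 24.6% higher and 21% lower in the first step, 11% and 11.5% in the second, and 23.7% and 20.5% over both. Of 9 TALE cofactors 1 rose and 4 fell in the first step, 1 rose and 3 fell in the second, and 0 rose and 4 fell over both. Meis1, the partner of Hoxa9 in progenitors, had 9.25 ± 0.89, 6.25 ± 1.17 and 3.25 ± 1.04 strong peaks from the first stage to the last (n = 8 each), and fell in each step (adjusted p = 0.00166 and 0.00485). Pknox1 had 2 ± 0, 2.63 ± 0.52 and 1.25 ± 0.46, and so rose in the first step (0.0323) and fell in the second (0.00485).

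On the Trithorax side 13 of 14 genes were tested, of which 4 rose and 4 fell in the first step, 4 rose and 0 fell in the second, and 5 rose and 3 fell over both. Kmt2a, the methyltransferase that keeps Hox genes active, had 2.63 ± 0.74, 7 ± 0.926 and 7.75 ± 0.46 strong peaks in stage order (n = 8 each), and rose in the first step (adjusted p = 0.00166; 0.343 in the second). Kdm6a, a demethylase of the Polycomb mark, had 4.63 ± 1.06, 1.13 ± 0.35 and 2.38 ± 0.74 (0.00166 and 0.0134). Of 14 Polycomb-side genes 5 rose and 2 fell in the first step, 1 rose and 2 fell in the second, and 3 rose and 1 fell over both. Cbx8, a reader of that mark, had 2 ± 0, 5.25 ± 0.71 and 4.13 ± 1.13 (0.00166 and 0.178), and Suz12, a core subunit, had 2 ± 0, 1.13 ± 0.35 and 1 ± 0 (0.00592 and 1). Of 7 genes of chromosome architecture 2 rose and 0 fell in the first step, among them the cohesin subunit Rad21, with 1 ± 0, 1.88 ± 0.35 and 2.13 ± 0.35 (0.00592 and 1). In the second step 0 rose and 1 fell, Stag2, another cohesin subunit, with 3.75 ± 1.04, 3.13 ± 0.35 and 1.5 ± 0.535 (0.388 and 0.00485). Over both 2 rose and 1 fell. By genotype 0 genes of these 4 lists passed, and 3, 2, 1 and 0 of their 9, 13, 14 and 7 genes tested had an unadjusted p under 0.05, as did 893 of all 17598 genes.

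Markers of other cells moved with the stages too. The 10 genes of stem and multipotent progenitors held 29 to 38 strong peaks per library at pre-pro-B, 24 to 29 at pro-B and 18 to 24 at small pre-B. At pre-pro-B this list held 29 to 34 strong peaks in Mki67-/- and 36 to 38 in WT libraries. On the deposited lists, which served for genotype, the ranges overlapped, with 67 to 79 and 72 to 88. By genotype across stages 0 of the 10 genes passed, beside 0% of all genes. Of the 10, 3 rose and 3 fell in the first step (24.6% and 21% of all genes), and 0 rose and 3 fell in the second (11% and 11.5%). The 10 T and NK genes held 22 to 30, 14 to 18 and 11 to 14. In the first step 1 of them rose and 6 fell (24.6% and 21% of all genes). In the second 1 rose and 2 fell (11% and 11.5%). Cd3e, Cd8a and Ncr1 stood at 0 in every pro-B and small pre-B library. Klrb1c rose in the first step, from a mean of 1.88 to 3.13, and Zap70 in the second, from 3.25 to 4.5. The 10 myeloid genes held 24 to 29, 14 to 18 and 20 to 24, and the 8 erythroid and megakaryocyte genes 12 to 14, 12 to 16 and 12 to 13, with Gata1 and Alas2 at 0 in all 24 libraries. The 7 genes of plasmacytoid dendritic cells held 28 to 37, 41 to 44 and 43 to 49. Fewer cells with an open site and less opening per cell cannot be told apart in these bulk libraries, and the part of other cells in the Hox patterns was not tested.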

How the data were processed

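The data are 24 ATAC-seq peak lists. The submitters' processing notes name Trimmomatic, MACS2, deepTools, DiffBind and DESeq2 and the mm10 build, without versions or an aligner, and the authors deposited 1 peak list per library. Each deposited peak carries a score, which is its -log10 q times 10 cut to a whole number, a fold enrichment at the summit, and the -log10 p and -log10 q of that summit. The lowest deposited -log10 q is 2, that is a q-value threshold of 0.01. These values come from a separate call in each library and served only to rank and filter peaks within a list. As a stand-in for depth, background coverage was worked out by matching a Poisson p to the deposited one at 3000 summits of a list. It is no read count.

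Entries that touched were merged on chromosomes 1 to 19 and X. Genes were tested over body and 10 kb flanks if 4 or more libraries had a peak. Regions joined overlapping peaks of all libraries and were kept if 2 or more libraries of any group had one; an overlap of 1 bp counted. Gene starts came from the RefSeq promoter table where it held the gene and otherwise from the gene boundary. Tests were exact two-sided permutations of mean differences, genotype within stage and stage within genotype, adjusted over all genes or regions (threshold 0.05). P cannot go below 0.0286 with groups of 4 libraries, 0.000408 with groups of 8 or 5.83e-06 with groups of 12. The permutation code was tested on simulated data (Python 3.11.15, numpy 2.4.6, numba 0.67.0). The labels do not say whether stages share mice.

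The Hox genes, the lists of cofactors, regulators and markers, and the tests were chosen with earlier results of these data known. Named genes are up to 4 per cluster and stage step that passed by p and then size, 10 genes with a known role in blood, the outer 2 genes of each cluster, and for regions up to 3 per cluster, direction and step and 2 per cluster by genotype. Regions from the deposited lists are named besides, chosen after their values were seen. Alternatives were 20000 strongest peaks, deposited lists, covered length, 2 kb flanks, all genes with any peak, a -log10 q of at least 5, peaks covering 0.5 of a region, a replicate block and leaving out libraries. A TALE cofactor and a promoter motif are not reported here by name.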

Additional observations from a re-analysis of the deposited data

Results flagged for a closer look

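Among 48 groups of 4 libraries screened (peaks and covered length, by cluster, in the deposited lists), 4 had 1 library whose gap to the nearest other exceeded Dixon's critical value; chance flags about 1 in 20 groups. WT small pre-B replicate 1 had 7 Hoxd peaks, and the 3 others of its group had 2. Its Hoxd peaks covered 1846 bp, with the next at 699 bp. This library also had the most peaks of its group, 85621 in all. Mki67-/- small pre-B replicate 1 had 4 Hoxc peaks, and the others had 6; its list was the shortest of all, with 54387 peaks. WT pro-B replicate 4 had 8 Hoxc peaks, and the others had 9. The last 2 rest on whole counts of few peaks.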

How the results depend on the processing

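Counts of Hox genes and regions that passed between stages depended on the peak list, while 0 passed by genotype under each alternative run. With the deposited lists, pro-B against pre-pro-B gave 6 regions gained (3 on strong peaks) and 4 lost (2). The differences turned to -0.375 for Hoxd8, -1.125 for Hoxd3, -0.25 for Hoxd4, 1.25 for Hoxa7 and 0.25 for Hoxa9, and none of these passed. Small pre-B against pro-B gave 12 genes with fewer peaks (4), 1 region gained (0) and 8 lost (1). Small pre-B against pre-pro-B gave 0 genes with more peaks (1), 3 regions gained (1) and 11 lost (3), and Hoxa5 turned to 0.125. With the 20000 strongest peaks the first step gave 2 genes with more (4), 5 with fewer (3) and 1 region gained (3), the second 2 regions lost (1) with Hoxa6 at 0.25, and both together 0 genes with more and 0 regions gained (1 each). With 2 kb flanks the counts were 1 gene with more in the first step, 0 with fewer in the second, and 0 with more and 3 with fewer (8) over both. By covered length 17, 9 and 18 genes had less. Over the whole list strong peaks covered 31.7, 22 and 20.1 Mb from the first stage to the last. Shares of all genes are not given for these alternatives, so their gene counts do not set the Hox genes apart. On the deposited lists 20.4, 9.45 and 13.9% of all regions were gained in the 3 comparisons, and 30.2, 20.4 and 32.7% were lost. With peaks covering 0.5 of a region 4 regions were lost in the first step and 7 over both. Without the 3 libraries that stood apart 0 genes passed in the second step. The cause was not tested.

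Log2 ratios of cluster peaks moved by more than their spread too. For the first step Hoxa gave 0.359 on deposited lists, -0.854 with 20000 peaks and -0.601 by covered length (0 on strong peaks). Hoxb gave -0.193 with 20000 peaks and -0.582 by length (0.104), and Hoxc 3.0 with 20000 (-0.341). Even among the 40000 strongest peaks Hoxc held means of only 2.38 at pre-pro-B and 1.88 at pro-B, so its ratios rest on few peaks. On deposited lists the second step gave -0.558 for Hoxa (-0.259), -0.624 for Hoxb (-0.178) and -0.649 for Hoxc (0.093). Over both, Hoxa gave -1.095 with 20000 peaks and -1.124 by length (-0.259). Hoxb gave -0.749 on deposited lists, -0.541 with 20000 and -0.762 by length (-0.074), and Hoxd -1.538 on deposited lists (1.0). The Hoxd ratio on strong peaks rests on means of 1.25 peaks per library at small pre-B and 0.625 at pre-pro-B.

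Label numbers did not pair libraries in every pair: of 24 correlations of same-numbered libraries of 1 genotype 0 passed 0.1 on strong peaks (-0.0412 to 0.0319) and 5 on deposited lists (-0.269 to 0.197), and of 12 within a stage 0 (-0.16 to 0.0937) and 2 (-0.366 to 0.133). With a replicate block 1 region was lost in the first step, and 0 genes and 0 regions in the second. Hoxa13 (adjusted p = 0.0702) and Hoxc6 (0.139) did not pass in the first step, nor Hoxb6 (0.0732) over both. Leaving out single libraries gave 1 to 4 genes with more peaks over both steps (4 without Mki67-/- pre-pro-B replicate 3), 1 to 2 regions gained over both (2 without the same library), and 1 to 2 regions lost in the second step (2 without WT pro-B replicate 4, WT small pre-B replicate 3 or Mki67-/- small pre-B replicate 2).

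Within 1 genotype, 4 against 4 libraries cannot pass the adjustment, so stage steps by genotype are values only. Peak lists hold no read counts, so openness below the caller's threshold was not measured.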
